A study of Mus musculus with 12 samples.

Results

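Collagens and matrix proteins that bind them were followed as a set of 10 mouse genes. Their proteins belong to fibrillar and basement membrane matrix, such as that of the meninges and vessels of the embryonic CNS. Which cells the footprints came from was not measured. The genes were chosen by identifier. Of the 10 identifiers, 7 matched a row among the 10481 genes of the table. These were Col1a1 (ENSMUSG00000001506), Col1a2 (ENSMUSG00000029661), Col3a1 (ENSMUSG00000026043), Col4a1 (ENSMUSG00000031502), Fn1 (ENSMUSG00000026193), Sparc (ENSMUSG00000018593) and Dcn (ENSMUSG00000019929). Col4a2, Col5a2 and Col6a1 were not analysed here. The measurement was ribosome profiling, in which the mRNA fragments covered by ribosomes are sequenced and counted for each gene, in brain and spinal cord of E14.5 embryos of the Taiwanese SMA mouse. Controls were Smn+/-; SMN2tg/0 and SMA embryos were Smn-/-; SMN2tg/0, so both genotypes carried the human SMN2 transgene and the control embryos carried 1 intact Smn allele. Each of the 4 groups had 3 libraries. The 3 libraries of a group came from 3 embryos of its genotype. Whether brain and spinal cord libraries of the same number came from the same embryo was not given in the sources used here. Nor was it given whether the meninges were left on the tissue.

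Fibrillar collagens are secreted by fibroblasts, assemble into triple helices in the endoplasmic reticulum and form tension-bearing fibres outside the cell. Type IV collagen forms the sheet-like network of basement membranes, such as those under the pia mater and around brain vessels. Fibronectin, SPARC and decorin bind these collagens and shape how the fibres are laid down. Neurons and glia make little fibrillar collagen, and the fibroblasts of the meninges and perivascular spaces are its usual source in the CNS.

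Depth ranged from 3683842 to 9117017 counts in the brain libraries and from 5162190 to 12793955 counts in the spinal cord libraries. Control brain 1 was the deepest brain library, and each SMA spinal cord library was shallower than every control spinal cord library. Of 12 neuron markers listed, 4 could be followed (Map2, Elavl3, Nefl and Nefm), and their summed level lay between 3229 and 4389 CPM over the 12 libraries. Map2 alone averaged 3065 CPM, so the sum mostly follows this gene and is no measure of neuron content. The targeted gene was not analysed here. In such bulk tissue, fewer cells of a type and less ribosome-bound mRNA per cell cannot be told apart. Levels of mRNA were not analysed here, so differences in ribosome occupancy cannot be split into mRNA abundance and translation.

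According to RefSeq on GRCm38.p6, the fibrillar collagen genes lie at chr11:94936224-94953042 (Col1a1), chr6:4505618-4541543 (Col1a2) and chr1:45311538-45349706 (Col3a1). Col4a1 lies at chr8:11198423-11312889, and Fn1 lies on the chromosome of Col3a1 at chr1:71585473-71653280. Sparc lies on the chromosome of Col1a1 at chr11:55394159-55420080, and Dcn at chr10:97479500-97518163. The footprint counts cover the whole gene and carry no position within it. The 250 bases before the annotated start are shown for Col1a2 (chr6:4505368-4505617, plus strand) and Col3a1 (chr1:45311288-45311537, plus strand), from RefSeq on GRCm38.p6. No such window was at hand for Col1a1. A link between these letters and the footprint levels was not tested. Capitals mark the CCAAT letters of the CCAAT box, the GGGCGG letters of the GC box and the TATAAA letters of the TATA box.
Col1a2: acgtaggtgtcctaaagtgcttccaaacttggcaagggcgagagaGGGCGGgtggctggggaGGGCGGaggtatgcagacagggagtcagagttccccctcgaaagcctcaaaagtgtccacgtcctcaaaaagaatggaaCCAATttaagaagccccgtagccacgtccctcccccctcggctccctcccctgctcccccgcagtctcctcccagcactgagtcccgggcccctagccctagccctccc
Col3a1: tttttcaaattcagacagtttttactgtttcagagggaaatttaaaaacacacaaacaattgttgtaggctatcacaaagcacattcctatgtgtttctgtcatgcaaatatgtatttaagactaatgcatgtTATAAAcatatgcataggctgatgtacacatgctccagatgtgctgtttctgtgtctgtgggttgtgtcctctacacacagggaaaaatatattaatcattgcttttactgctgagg
Both strands were searched, and no matches overlapped. The Col1a2 window held CCAAT with its first base 109 bases before the start and GGGCGG at 205 and 188 bases before it. The Col3a1 window held TATAAA at 117 bases before the start. Of 32851 RefSeq windows of 250 bases, 33.8% held CCAAT, 32.7% held GGGCGG and 12.4% held TATAAA on either strand. A match is a description of the letters only.

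Levels are given as CPM, the count scaled to a common library total with TMM factors over all 12 libraries. Per kilobase of the deposited gene length, Sparc had the highest ribosome occupancy of the 7 genes in control brain, at 145.3 ± 6.96 CPM per kilobase (SD, n = 3), followed by Fn1 at 17.6 ± 2.14 and Col4a1 at 9.61 ± 1.00. The 3 fibrillar collagens followed, with Col3a1 at 1.35 ± 0.829, Col1a2 at 1.03 ± 0.354 and Col1a1 at 0.974 ± 0.373 CPM per kilobase, which did not differ beyond their spread. Dcn was last at 0.570 ± 0.473 CPM per kilobase. In control spinal cord, Dcn stood at 11.8 ± 0.582 CPM per kilobase, above Col4a1 at 7.40 ± 0.837 and below Fn1 at 20.4 ± 5.86. Together the 7 genes made up 0.0852% ± 0.00472 of all counts in brain of control embryos and 0.0805% ± 0.00421 in brain of SMA embryos (SD, n = 3). In spinal cord their share was 0.109% ± 0.0123 for control and 0.116% ± 0.0253 for SMA embryos. SMA spinal cord 1 was the highest library, at 0.145%. Sparc and Fn1 made up most of these shares, which are thus no measure of the collagens.

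**Figure D1:**
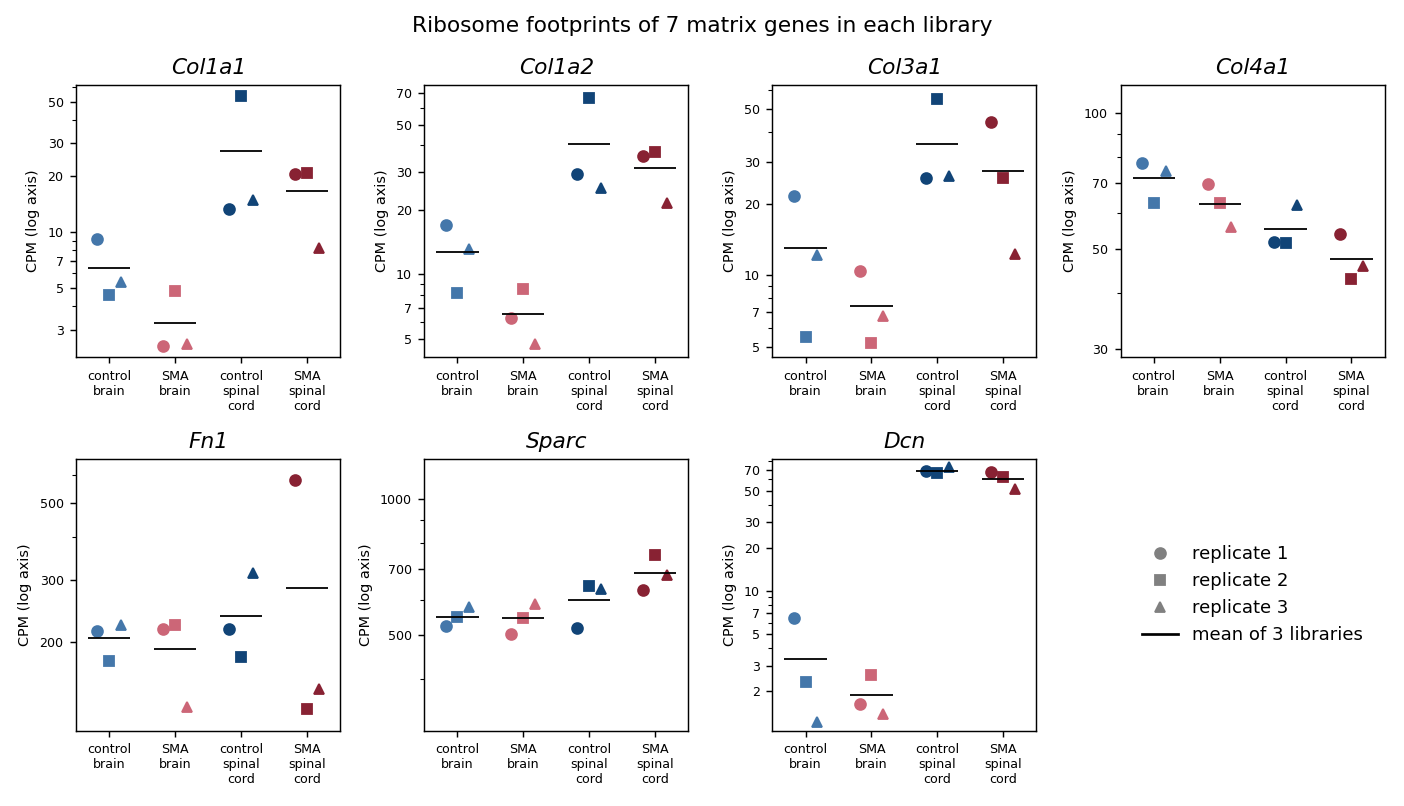
Ribosome footprints of the 7 genes in each of the 12 libraries, as CPM on a log axis, with 3 points a group and the group mean as a line. Dcn in spinal cord lies between 51.4 and 72.6 CPM, above every brain library, while control spinal cord 2 lies above the other libraries for Col1a1, Col1a2 and Col3a1 and SMA spinal cord 1 for Fn1.

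In brain, ribosome occupancy of the fibrillar collagens was lower in SMA than in control embryos, by 1.93-fold for Col1a1, 1.93-fold for Col1a2 and 1.86-fold for Col3a1. These 3 genes passed the thresholds of the study (average CPM 0.05 or more, log2 fold change 0.5 or more in size, unadjusted p under 0.05). None passed the Benjamini-Hochberg adjustment over 10481 genes. Col4a1, Fn1, Sparc and Dcn did not pass the thresholds. Of all genes, 1.53% passed them in brain. The median log2 fold change was -0.89 over the 7 genes and 0.00 over all genes. Without control brain 1, 0 of the 7 genes passed with edgeR, with 0 at an unadjusted p below 0.05. Without SMA brain 3, and also with DESeq2 or with 1 edgeR fit over all 12 libraries, Col1a2 was the only one of the 7 genes that passed. Col1a1 also missed the p threshold without SMA brain 1, and Col3a1 without SMA brain 2 or control brain 3.

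Col1a1, which encodes the more abundant chain of type I collagen, had 9.19, 4.62 and 5.37 CPM in control brain 1, 2 and 3 and 2.46, 4.82 and 2.51 CPM in SMA brain 1, 2 and 3. Control brain 1 was the highest, and SMA brain 2 lay above control brain 2, so the genotypes overlapped. These levels came from 22 to 84 counts a library in control brain and 9 to 26 counts in SMA brain. The log2 fold change was -0.95 (SE 0.35, unadjusted p = 0.0186 and adjusted p = 0.902 in edgeR's quasi-likelihood test), and the exact 2-sided permutation p was 0.2, where 3 against 3 libraries can reach no less than 0.1. Without control brain 1 it was -0.54 (SE 0.38, unadjusted p = 0.183 in edgeR's test).

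Col1a2, the partner chain of type I collagen, had 17.0, 8.20 and 13.2 CPM in control brain and 6.29, 8.54 and 4.74 CPM in SMA brain. SMA brain 2 again lay above control brain 2, and the other SMA libraries lay below all controls. The log2 fold change was -0.95 (SE 0.28, unadjusted p = 0.00547 and adjusted p = 0.902 in edgeR's quasi-likelihood test, exact permutation p = 0.2), and without control brain 1 it was -0.66 (SE 0.30, unadjusted p = 0.0510). Col3a1, the chain of type III collagen that mixes with type I in soft tissues, had 21.4, 5.46 and 12.2 CPM in control brain and 10.4, 5.20 and 6.69 CPM in SMA brain. Control brain 2 lay below SMA brain 1 and SMA brain 3. The log2 fold change of Col3a1 was -0.89 (SE 0.40, unadjusted p = 0.0442 and adjusted p = 0.902 in edgeR's test, exact permutation p = 0.4), and -0.25 (SE 0.38, unadjusted p = 0.514) without control brain 1. The 3 genes together made up 0.00319% ± 0.00150 of counts in control brain and 0.00169% ± 0.000293 in SMA brain (SD, n = 3).

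Dcn, a small proteoglycan that coats collagen fibrils, had few footprints in brain outside control brain 1. Its counts were 59, 11 and 5 in control and 6, 14 and 5 in SMA libraries. Its levels were 6.45, 2.31 and 1.22 CPM in control brain and 1.64, 2.60 and 1.39 CPM in SMA brain, and both genotypes overlapped apart from control brain 1. The log2 fold change was -0.92 (SE 0.54, unadjusted p = 0.112 in edgeR's test), and it was 0.12 without control brain 1. The well-covered genes differed less between genotypes in brain. Col4a1, a chain of type IV collagen, had 77.5, 63.3 and 74.4 CPM in control brain and 69.4, 63.3 and 55.8 CPM in SMA brain, with a log2 fold change of -0.18 (95% interval -0.42 to 0.07). Fn1, which encodes fibronectin, had a log2 fold change of -0.08 (95% interval -0.41 to 0.25), from 216, 177 and 224 CPM in control brain and 218, 224 and 131 CPM in SMA brain. Sparc, a calcium-binding protein that escorts collagen, had 524, 550 and 577 CPM in control brain and 504, 545 and 587 CPM in SMA brain, which interleaved library by library, and a log2 fold change of 0.00 (95% interval -0.17 to 0.18). No member had all SMA brain libraries below all control brain libraries, an arrangement that 7.43% of the 9781 genes averaging 20 counts or more showed.

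Markers of the cells that make this matrix were followed beside these values, and their part in the result was not tested. Of 16 meningeal fibroblast markers listed, 3 could be followed (Crabp2, Aldh1a2 and Cdh1), and their summed level was 25.7, 14.7 and 16.1 CPM in control brain and 13.9, 13.7 and 15.9 CPM in SMA brain. Control brain 1, the highest library for the fibrillar collagens and Dcn, was also the highest brain library for this sum. Crabp2, a retinoic acid binding protein, made up most of it. Aldh1a2, an enzyme of retinoic acid synthesis, was near the floor in brain, at 0 in the 3 SMA libraries and between 0.210 and 0.244 CPM in control. At so few footprints no difference between genotypes can be read (unadjusted p = 0.138 in edgeR's test). Of 18 endothelial markers, 2 could be followed (Esam, a junction protein, and Ramp2, a receptor partner for adrenomedullin), with a summed level of 78.3 to 89.3 CPM in control brain and 64.0 to 66.6 CPM in SMA brain. The sums did not overlap, and neither gene passed the thresholds, with log2 fold changes of -0.44 for Esam and -0.28 for Ramp2. Ramp2 made up most of the sum and did not overlap between genotypes, while Esam alone did overlap. Of the 9781 genes averaging 20 counts or more, 7.43% had all SMA brain libraries below all control brain libraries. The sum of so few markers is no measure of endothelial content. None of the 11 pericyte and smooth muscle markers or 18 skeletal muscle markers could be followed.

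In spinal cord, none of the 7 genes passed the thresholds of the study between genotypes in edgeR or in DESeq2. None had an unadjusted p below 0.05 in edgeR. Of all genes, 0.983% passed the thresholds in this edgeR fit. The paper reported more spinal cord genes past its thresholds than were called here, so these calls do not stand for its own list. The cause of that difference was not tested. The median log2 fold change was -0.22 over the 7 genes and -0.01 over all genes. Levels of the fibrillar collagens varied more within a genotype than between genotypes. Col1a1 had 13.2, 53.4 and 14.9 CPM in control spinal cord and 20.5, 20.8 and 8.18 CPM in SMA spinal cord, so that 1 control library was high and the other 2 lay between the SMA libraries. Its log2 fold change was -0.73 (SE 0.61, adjusted p = 0.744 in edgeR's test) and was 0.22 without control spinal cord 2. Col1a2 had 29.4, 66.6 and 25.4 CPM in control spinal cord and 35.7, 37.1 and 21.4 CPM in SMA spinal cord, and its log2 fold change went from -0.38 to 0.18 when the same library was left out. Col3a1 had 25.7, 55.1 and 26.1 CPM in control and 44.3, 25.6 and 12.3 CPM in SMA libraries, with a log2 fold change of -0.38, and of 0.08 once control spinal cord 2 was left out.

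The other genes gave narrower limits in spinal cord, apart from Fn1. Col4a1 had 51.7, 51.6 and 62.5 CPM in control and 54.0, 42.9 and 45.8 CPM in SMA spinal cord, with a log2 fold change of -0.22 (95% interval -0.47 to 0.02). Dcn had 68.5, 65.8 and 72.6 CPM in control and 67.2, 62.0 and 51.4 CPM in SMA spinal cord, with a log2 fold change of -0.21 (95% interval -0.44 to 0.02). Sparc had 518, 643 and 634 CPM in control and 630, 752 and 680 CPM in SMA spinal cord, with a log2 fold change of 0.19 (95% interval -0.01 to 0.39). The unadjusted p in edgeR's test was 0.120 for Col4a1, 0.120 for Dcn and 0.111 for Sparc, less close to a difference than the normal intervals look. For each of these 3 genes SMA spinal cord 1 lay within the range of the control libraries. Fn1 had 218, 182 and 314 CPM in control spinal cord but 581, 129 and 147 CPM in SMA spinal cord, where SMA spinal cord 1 exceeded every other library of the study. Its log2 fold change was 0.26 (SE 0.57, adjusted p = 0.899 in edgeR's test), and without SMA spinal cord 1 it turned to -0.80 (unadjusted p = 0.0110, adjusted p = 0.421) and passed the thresholds of the study. No member had all SMA spinal cord libraries below all controls, against 6.33% of the 9781 genes. Of 12 red blood cell markers listed, only Slc4a1, an anion exchanger, could be followed. It had 10.7 CPM in SMA spinal cord 1, 2.72 and 3.60 CPM in the other SMA libraries and 1.04 to 1.75 CPM in control spinal cord. Slc4a1 passed the thresholds of the study there (log2 fold change 2.08, unadjusted p = 0.00798, adjusted p = 0.684 in edgeR's test). Its part in the Fn1 value was not tested. The sum of the 3 meningeal markers was 42.7 to 63.0 CPM in control and 44.5 to 56.3 CPM in SMA spinal cord, and the ranges overlapped.

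**Figure D2:**
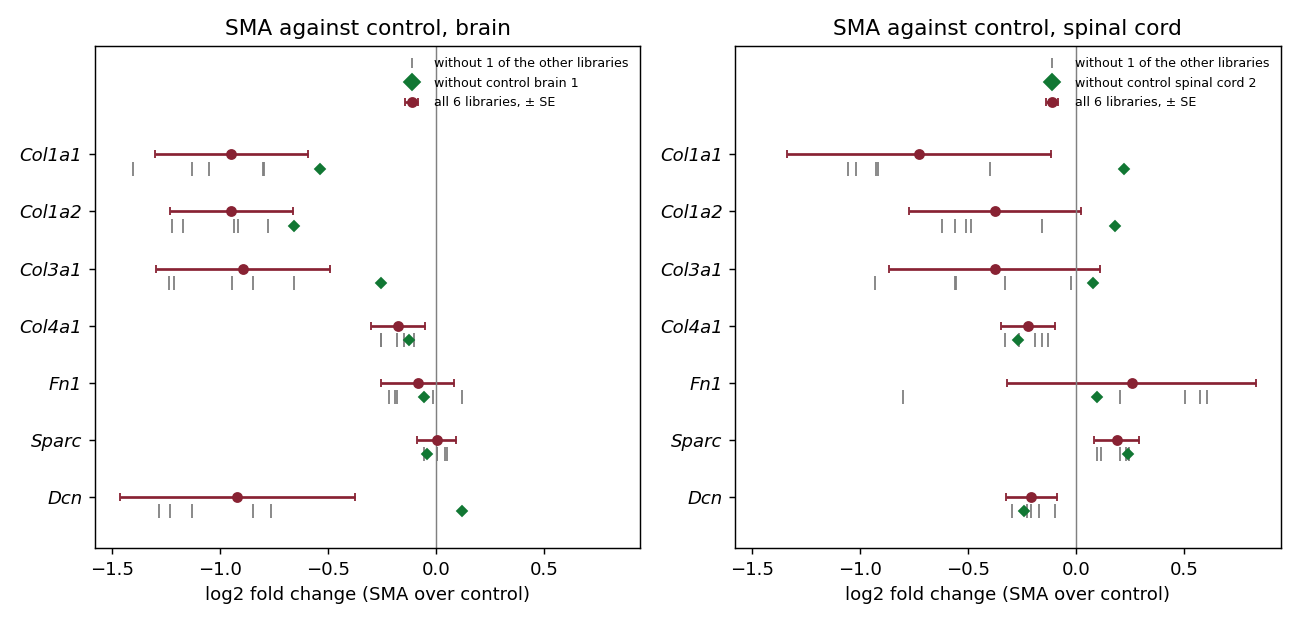
Log2 fold change of SMA over control for the 7 genes in brain (left) and spinal cord (right), with bars of ± SE from the edgeR fit of all 6 libraries of a tissue. Grey ticks leave out 1 library in turn and green diamonds leave out control brain 1 or control spinal cord 2, which moves Col3a1 in brain from -0.89 to -0.25 and Col1a1 in spinal cord from -0.73 to 0.22.

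Whether the genotype difference itself differed between brain and spinal cord was tested as an interaction in 1 fit over the 12 libraries. No member passed in edgeR or DESeq2 at an adjusted p below 0.05, and none had an unadjusted p below 0.05 in edgeR, which 2.38% of all genes had. The log2 interaction, the spinal cord difference minus the brain difference, was 0.24 (95% interval -1.39 to 1.88) for Col1a1, 0.60 (-0.52 to 1.72) for Col1a2 and 0.51 (-0.98 to 2.01) for Col3a1. The calls of the fibrillar collagens in brain were thus not shown to be particular to brain. The median interaction was 0.37 over the 7 genes and 0.03 over all genes.

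Between tissues the differences were larger. How much of the meninges each library held is not known, and its part in these differences was not tested. In control embryos, ribosome occupancy of Dcn was 17.9-fold higher in spinal cord than in brain, that of Col1a1 4.104-fold, of Col1a2 3.11-fold and of Col3a1 2.64-fold higher, and that of Col4a1 was 1.30-fold lower. At an adjusted p below 0.05 in edgeR, 4 of the 7 genes were higher and 1 was lower, while 20.1% of all genes were higher and 21.1% were lower in control spinal cord. The median log2 fold change was 1.40 over the 7 genes and 0.00 over all genes. The authors dropped genes whose FPKM was low in every replicate of a condition, control or SMA, and how the tissues entered this filter was not given in the sources used here. A gene may therefore have been kept through its spinal cord level, and these counts describe the 7 genes without serving as support.

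The log2 fold change of Dcn between control tissues was 4.16 (SE 0.33, adjusted p = 5.5e-06 in edgeR's test), from 1.22 to 6.45 CPM in brain and 65.8 to 72.6 CPM in spinal cord. For Col1a1 it was 2.04 (SE 0.56, adjusted p = 0.0119), for Col1a2 1.64 (SE 0.38, adjusted p = 0.00535) and for Col3a1 1.40 (SE 0.51, adjusted p = 0.0458). The tissues did not overlap for these 4 genes, with an exact permutation p of 0.1 each. All control spinal cord libraries lay above all control brain libraries for 27.1% of the 9781 genes averaging 20 counts or more, and below them for 28.4%. For Col4a1 the log2 fold change was -0.38 (SE 0.13, adjusted p = 0.0297), and the tissues were close, with the highest spinal cord library at 62.5 CPM and the lowest brain library at 63.3 CPM. When libraries were scaled by their totals and not by TMM, Col4a1 was at -0.32 and lost its call (adjusted p = 0.0637 in edgeR's test), which left 4 genes called. Fn1 at 0.21 (SE 0.47, adjusted p = 0.741) and Sparc at 0.12 (SE 0.10, adjusted p = 0.329) did not pass. Without control spinal cord 2, Col1a1 fell to a log2 fold change of 1.09 (adjusted p = 0.0562 in edgeR's test) and Col3a1 to 0.95 (adjusted p = 0.172). Only Dcn and Col1a2 kept an adjusted p below 0.05 whichever of the 6 control libraries was left out.

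The SMA libraries had no part in the control contrast apart from the shared estimate of spread, the TMM scaling and the filter of the table. The log2 fold change of SMA spinal cord over SMA brain was 4.93 (SE 0.39) for Dcn, 2.28 (SE 0.63) for Col1a1, 2.24 (SE 0.43) for Col1a2 and 1.92 (SE 0.57) for Col3a1, with edgeR's adjusted p at 4.5e-06, 0.0125, 0.00152 and 0.0185. Sparc was also higher, at 0.33 (SE 0.10, adjusted p = 0.0169), and Col4a1 lower, at -0.40 (SE 0.13, adjusted p = 0.0290). Fn1 did not pass, at 0.58 (SE 0.47, adjusted p = 0.344). Of the 7 genes, 5 were higher and 1 was lower in SMA spinal cord, against 21% and 19.3% of all genes. The called genes had no overlap between SMA tissues, an arrangement with spinal cord above brain in 26.8% of the 9781 genes and with spinal cord below brain in 26.8% as well. Dcn and Col1a2 again kept the call whichever SMA library was left out.

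**Figure D3:**
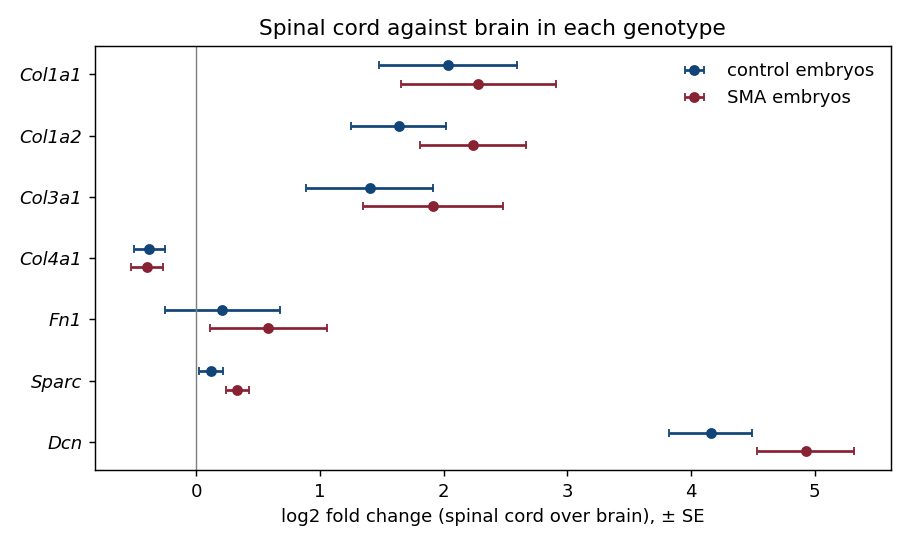
Log2 fold change of spinal cord over brain for the 7 genes in control and in SMA embryos, with bars of ± SE from 1 edgeR fit over 12 libraries. Dcn stands at 4.16 and 4.93, the fibrillar collagens between 1.40 and 2.28, and Col4a1 below 0 at -0.38 and -0.40.

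Cell type markers moved between the tissues as well, and their part in these differences was not tested. The summed meningeal fibroblast markers ranged from 14.7 to 25.7 CPM in control brain and from 42.7 to 63.0 CPM in control spinal cord. Aldh1a2, which limb-level motor neurons of the spinal cord also express, rose from 0.224 ± 0.0176 CPM in control brain to 27.0 ± 4.11 CPM in control spinal cord (SD, n = 3) and made up most of that difference. Crabp2 had 15.9 ± 5.90 and 26.4 ± 8.52 CPM in the same groups, with a log2 fold change of 0.71 (adjusted p = 0.0554 in edgeR's test), and Cdh1, an adhesion protein of the arachnoid barrier and of epithelia, had 2.70 ± 1.10 and 1.89 ± 1.16 CPM. The endothelial sum was 78.3 to 89.3 CPM in control brain and 98.0 to 99.9 CPM in control spinal cord, and neither of its genes was called there (adjusted p = 0.400 for Esam and 0.0943 for Ramp2 in edgeR's test). Markers of neurons moved too. Nefl and Nefm, the light and medium neurofilament chains of large axons, rose from 61.0 ± 13.0 to 235 ± 37.6 CPM and from 147 ± 28.0 to 543 ± 99.3 CPM, log2 fold changes of 1.93 and 1.89 (adjusted p = 1.72e-05 and 1.59e-05), while Elavl3, an RNA-binding protein of neurons, fell by 0.36 on the log2 scale (adjusted p = 0.00561). Of 10 neural progenitor markers, 3 could be followed, with Slc1a3, a glutamate transporter, at a log2 fold change of 1.20 (adjusted p = 7.63e-06), Nes, an intermediate filament, at -1.22 (adjusted p = 1.3e-05) and Fabp7, a fatty acid binding protein, at -0.37 (adjusted p = 0.0882). Col2a1, the collagen of cartilage and 1 of 14 cartilage and bone markers that could be followed, went the other way, from 121 ± 7.01 CPM in control brain to 88.0 ± 21.3 CPM in control spinal cord (log2 fold change -0.46, adjusted p = 0.0357).

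The 7 genes differed in how much their CPM varied between libraries of a group. The coefficient of variation of Col1a1 was 38.3% in control brain and 41.4% in SMA brain, where its mean of 42.7 and 14.7 counts gives 15.3% and 26.1% from counting error alone. In spinal cord it was 83.7% for control and 43.6% for SMA embryos, with a counting error of 5.77% and 9.64%. Sparc stood at the low end, with 4.79% in control brain against a counting error of 1.75%, and Fn1 in SMA spinal cord at the high end, with 89.7% against 2.19%. The variation was shared among some of the genes. Over the deviations of the 12 libraries from their group means, Pearson's r was 0.94 for Col1a1 with Col1a2, 0.73 for Col1a2 with Col3a1, 0.66 for Col1a1 with Col3a1 and 0.80 for Col4a1 with Fn1. Over all 21 pairs the median r was 0.27. These correlations are descriptions over 12 libraries, in which all genes share a library's depth and preparation.

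**Figure D4:**
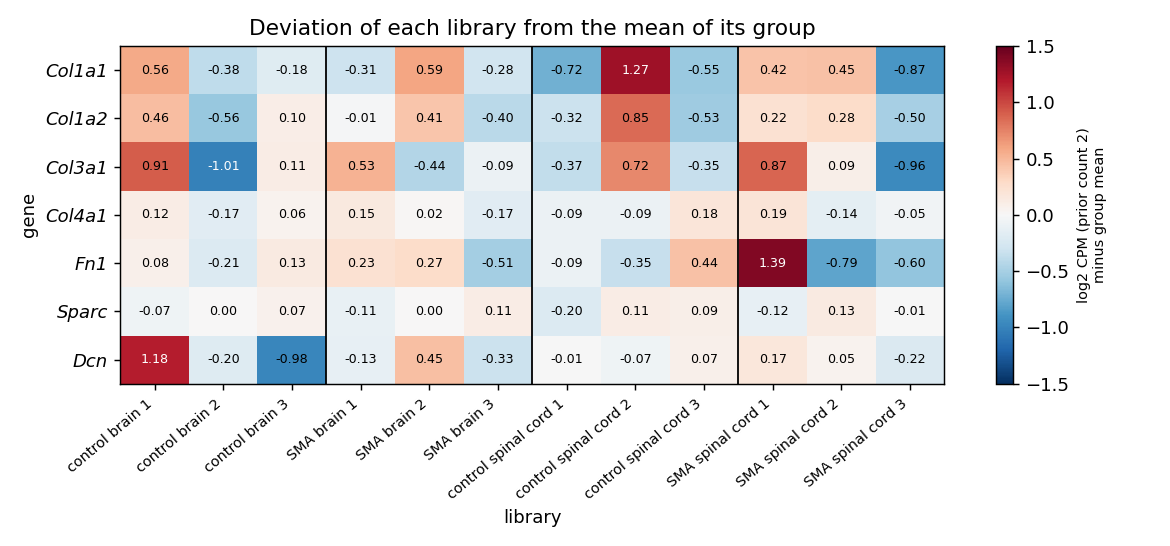
Deviation of each library from the mean of its group, as log2 CPM with a prior count of 2, for the 7 genes (rows) in 12 libraries (columns), with the value in each cell and black lines between groups. Col1a1, Col1a2 and Col3a1 are together high in control brain 1 and control spinal cord 2 and low in SMA spinal cord 3, Dcn spreads most in control brain, from -0.98 to 1.18, and Fn1 stands at 1.39 in SMA spinal cord 1.

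Type I collagen holds a pair of chains from Col1a1 for each chain from Col1a2, so the ratio of their footprints was followed in each library. Per base of the deposited gene length, the ratio of Col1a1 to Col1a2 was 0.955 ± 0.161 for control and 0.938 ± 0.174 for SMA embryos in brain (SD, n = 3). In spinal cord it was 1.16 ± 0.337 for control and 0.957 ± 0.203 for SMA embryos. The groups overlapped, and control spinal cord 2 was the highest at 1.52. The deposited length is the union of exons, 6563 bases for Col1a1 and 12426 bases for Col1a2, and holds untranslated sequence, so this ratio is no count of ribosomes per codon. As plain counts, Col1a1 had 0.504 ± 0.0848 footprints for each footprint of Col1a2 in control brain and 0.612 ± 0.178 in control spinal cord. Collagen genes share repeated coding sequence, and reads with up to 5 alignments were kept by the authors, so a part of the footprints of one chain may have been counted for another.

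Other genes of the matrix could be followed where a name was at hand, which held for 2004 of the 10481 genes. Of 35 other collagens listed, 3 were followed. Col14a1, which encodes a collagen that lies on fibril surfaces, had 4.49 ± 2.58 CPM in control brain and 74.8 ± 23.9 CPM in control spinal cord, a log2 fold change of 3.93 (SE 0.36, adjusted p = 1.2e-05 in edgeR's test), and 4.64 ± 1.86 and 74.6 ± 13.2 CPM in the SMA tissues. It differed between tissues in the same direction as Dcn and the fibrillar collagens and stayed close between genotypes, with log2 fold changes of 0.00 in brain and -0.01 in spinal cord. Col18a1, a basement membrane collagen, had 68.5 ± 1.83 CPM in control and 54.1 ± 8.85 CPM in SMA brain, and Col2a1 had 121 ± 7.01 and 88.3 ± 14.6 CPM. Neither passed the thresholds of the study, although their unadjusted p was 0.0273 and 0.00422, because the log2 fold changes were -0.32 and -0.43.

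Of 31 genes of collagen synthesis, 6 were followed, and 5 of them were higher in control spinal cord than in control brain at an adjusted p below 0.05. Of all genes, 20.1% were higher at this threshold, and the list was not tested as a set. The median log2 fold change was 0.45 over the 6. Bmp1, the protease that trims procollagen, rose most of the 3 best covered, by a log2 fold change of 0.86 (SE 0.12, adjusted p = 0.000229 in edgeR's test), ahead of Sec23a, a coat protein of secretory vesicles, at 0.35, and Plod3, a lysyl hydroxylase, at 0.34. None of the 6 passed the thresholds between genotypes in either tissue, and Plod3 came closest in brain, at -0.40 (unadjusted p = 0.0133).

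Of 17 basement membrane partners, 4 were followed and 1 was called between control tissues, where 20.1% of all genes were called higher and 21.1% lower. Pxdn, the peroxidase that cross-links type IV collagen, had 76.3 ± 5.44 CPM in control brain and 183 ± 55.0 CPM in control spinal cord (log2 fold change 1.26, adjusted p = 0.000236 in edgeR's test), opposite in direction to Col4a1. Nid1, which links laminin to type IV collagen, had 93.2 ± 12.4 and 125 ± 24.7 CPM there, and Smoc1 had 44.7 ± 13.4 and 56.0 ± 7.36 CPM. Nid1 had 70.8 ± 15.4 CPM in SMA brain, a log2 fold change of -0.38 against control brain (unadjusted p = 0.0243) that did not reach the thresholds.

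Of 40 matrix glycoproteins and proteoglycans, 3 were followed and all 3 were called between control tissues. Of all genes, 20.1% were called higher and 21.1% lower there, so calls in so short a list are a description only. Vtn, which encodes vitronectin, rose from 34.4 ± 3.65 CPM in control brain to 175 ± 19.1 CPM in control spinal cord (log2 fold change 2.34, SE 0.12, adjusted p = 3.3e-07 in edgeR's test). Vcan, a large hyaluronan-binding proteoglycan of the embryonic CNS, and Fbln1, a fibulin, were lower in spinal cord, at -0.73 and -0.67. Of 24 matrix proteases and inhibitors, 3 were followed. Serpinf1, a secreted serpin, rose from 1.31 ± 0.981 to 9.29 ± 2.79 CPM between control tissues (log2 fold change 2.94, SE 0.87, adjusted p = 0.0169), Mmp14, a membrane-bound collagenase, was lower at -0.57, and Timp2, a metalloprotease inhibitor, did not pass at 0.26 (adjusted p = 0.0727).

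Of 27 matrix receptors, 7 were followed, and 3 were higher and 2 lower in control spinal cord, against 20.1% and 21.1% of all genes. Itga3, a laminin-binding integrin chain, was higher at a log2 fold change of 1.29, while Ddr1, a collagen receptor kinase, and Sdc1, a cell surface proteoglycan, were lower at -0.40 and -1.01. Sdc4, a syndecan of adhesion sites, was the only followed gene of the matrix lists outside the 7 that passed the thresholds of the study between genotypes, with 6.74 ± 1.40 CPM in control brain and 4.37 ± 1.05 CPM in SMA brain (log2 fold change -0.68, unadjusted p = 0.0295, adjusted p = 0.902 in edgeR's test). In spinal cord its log2 fold change was 0.27 (adjusted p = 0.861).

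Among 1922 named genes that averaged 20 counts or more, those whose level over the 12 libraries ran closest to the mean standardized level of the 7 genes were Ppp2r5c, a phosphatase subunit (Pearson's r = 0.91), Pnck, a calmodulin-dependent kinase (0.91), Cluh (0.89), Plec, a cytoskeletal linker (0.88), and Evi5 (0.88). Over deviations from the group means, the closest were Tdrd3 (0.91), Kit, a receptor kinase (0.88), Akt2, a kinase of insulin signalling (0.87), Sra1 (0.86) and Kctd5 (0.85). No other collagen or matrix gene was among these 10.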

How the data were processed

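Ribosome-protected fragments were purified from E14.5 brain and spinal cord. The authors trimmed reads with cutadapt 4.1, removed rRNA and tRNA reads, aligned with STAR 2.5.3a to GRCm38.p6 with Gencode annotation, keeping up to 5 alignments a read, and dropped genes whose FPKM was low in every replicate of a condition. The deposited table gives unnormalized footprint counts per gene and library, with a gene length in bases. The authors removed duplicate reads at the same transcript position, but the counting tool, and whether the deposited counts were made before or after that removal, were not given in the sources used here. Depth was 3683842 to 12793955 counts a library. Precision is limited by depth where counts are low, and by the spread between the 3 libraries of a group.

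The members and gene lists were chosen with earlier results of these data known. Names came from a supplementary table, the RefSeq identifiers matched 0 of the rows, and lists held too few named genes for more than a description. Genes named beside the members were those past the thresholds of the study, those called between control tissues with a log2 fold change of 2 or more in size, the 3 of each list with the highest mean CPM, and the 5 closest in pattern by each measure.

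Tests were run in R 4.3.3 with the edgeR package, version 4.0.16 (TMM, estimateDisp, glmQLFit, glmQLFTest, Benjamini-Hochberg over 10481 genes, 2-sided) and, as an alternative, DESeq2 1.42.0, after the code was tested on simulated data. SMA and control were compared within each tissue in 6 libraries, and tissues and the interaction in 1 fit over 12 libraries. The SE was taken from the unshrunk log2 fold change over the root of its F statistic. The 95% intervals are normal and so narrower than edgeR's test implies. Figures were drawn with matplotlib 3.10.9. The replicate numbers were checked for pairing. Deviations from group means of same-numbered brain and spinal cord libraries had r of 0.35, 0.11 and 0.15 in SMA embryos over 9781 genes. In control embryos r was 0.11, 0.0096 and 0.13. Libraries of different number were not compared, so these values do not establish a pairing, and the labels give none. Between genotypes of a tissue the signs were mixed. Alternatives were library size alone, the genes kept by filterByExpr, the replicate block, other sets of libraries in the fit, removal of a trend on counts per base, and each library left out. The newer quasi-likelihood fit of edgeR was added after seeing the data.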

Additional observations from a re-analysis of the deposited data

How the results depend on the processing

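Limits first. Counts of the fibrillar collagens and Dcn in brain were 5 to 196 a library, 3 libraries a group leave single libraries to decide calls, and the pairing of samples is not in the labels. No member had an adjusted p below 0.05 between genotypes under any setting.

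In brain, 1 member passed the thresholds of the study with DESeq2 and 1 with 1 fit over all 12 libraries, against 3, and Col1a1 and Col3a1 dropped out of both. Correction of each library for its trend with counts per base left 2, with Col3a1 at -0.80 (unadjusted p = 0.0648 in edgeR's test). The value of Sparc changed sign with library size alone (-0.016), with 1 fit over all 12 libraries (-0.012) and after correction of each library for its trend with counts per base (-0.085). With each library left out in turn, the number of members past the thresholds in brain lay between 0 and 3 and their median between -1.13 and -0.12, with both 0 and -0.12 reached without control brain 1. Fn1 lay between -0.22 and 0.12, Sparc between -0.053 and 0.053, and Dcn between -1.28 and 0.12 there. In spinal cord the same ranges were 0 to 1 for the number of members, -0.49 to 0.10 for the median, -1.06 to 0.22 for Col1a1, -0.62 to 0.18 for Col1a2, -0.93 to 0.078 for Col3a1 and -0.80 to 0.61 for Fn1. Between control tissues they were 2 to 5 members, 0.95 to 1.93 for the median and -0.040 to 0.37 for Fn1, and between SMA tissues 3 to 5 members, 1.37 to 2.27 for the median and -0.48 to 0.92 for Fn1. For the interaction they were -0.081 to 0.73 for the median, -0.16 to 1.19 for Col1a1, -0.11 to 0.97 for Col3a1, -0.12 to 0.078 for Col4a1, -0.69 to 0.70 for Fn1 and -0.32 to 1.13 for Dcn. The cause of these shifts was not tested.

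With the replicate block, Fn1 in spinal cord turned from 0.26 to -0.080 and the number of members past the thresholds was 3 in brain and 0 in spinal cord, so the block changed no call of a member. Same-numbered control and SMA libraries had correlations of deviations of -0.14, 0.024 and 0.00062 in brain and 0.23, 0.70 and -0.45 in spinal cord. These values do not establish a pairing of the genotypes. Over all genes, the thresholds called 160 genes in brain, 91 with DESeq2 and 273 without SMA brain 2, and 103 genes in spinal cord, 207 with the replicate block, 169 with 1 fit over all 12 libraries and 58 to 388 with each library left out. The newer quasi-likelihood fit left Col1a1 between SMA tissues at an adjusted p of 0.0608. The fit of 6 libraries could not be made for the interaction, which needs 4 groups, and the ratio of Col1a1 to Col1a2 could not be given per codon.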
